A study of Mus musculus with 6 samples.

Results

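Nrg1, Ereg, Areg, Hbegf, Hgf, Fgf7, Fgf10, Vegfa, Vegfc and Angpt1 encode secreted or shed growth factors by which connective tissue can reach epithelium and vessels. All 10 genes were listed among the 19069 genes measured in single cells sorted from mouse colon tumors, and they were chosen by name as a group of ligands. Tumors had been induced with the carcinogen azoxymethane and cycles of the colitis-inducing dextran sulfate sodium (AOM/DSS), while the sample labels give no further treatment. All 6 mice carried loxP-flanked Zeb1 alleles. The 3 FibCtrl mice (labelled Zeb1Fib-Ctrl) lacked the Col6a1Cre transgene, and the 3 FibΔZeb1 mice (labelled Zeb1Fib-deleted) were positive for it. This constitutive Cre is driven by the Col6a1 promoter, known to be active in a part of the mesenchymal cells of the gut, and the exact age of the mice is not given in the sources used here. Viable cells negative for EPCAM, CD45 and CD31 were sorted into the 384 wells of 1 plate per mouse, so that plate and mouse cannot be told apart. SORT-seq counts molecules at the 3' end of the mRNA, and levels are given as CPM, a gene's transcripts in the summed wells of a mouse scaled to the same total in every sum.

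These ligands are grouped here by receptor. Nrg1, Ereg, Areg and Hbegf belong to the EGF family, are made as membrane-bound precursors and are released by sheddases. Nrg1 binds ERBB3 and ERBB4, whereas Ereg, Areg and Hbegf bind EGFR. Hgf, a classical product of mesenchymal cells, acts through MET on epithelium, and Fgf7 and Fgf10 act mainly through the epithelial splice form of FGFR2. Vegfa and Vegfc are the main growth factors of blood and lymphatic vessels, and Angpt1 is the agonist of the endothelial receptor TIE2, encoded by Tek. In the healthy colon, fibroblasts close to the crypt supply epithelium with several of these factors, and subepithelial telocytes are known as a source of Nrg1.

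Of 2304 wells, 1233 had 100 to 6000 genes and less than 10% mitochondrial transcripts and were kept. They held 667892 to 3141930 transcripts per mouse, with medians of 1687 to 11164 per well. Kept wells were gated on marker genes, none of which was 1 of the 10 ligands. Glandular and squamous epithelium were joined in 1 type, called epithelium-like. The gates gave 520 fibroblast-like, 427 neutrophil-like, 81 mural-like and 75 epithelium-like wells, with 15 smooth muscle- or myofibroblast-like, 7 glia-like, 89 ungated and 19 mixed wells. Of the kept wells, which carry the label CAFs (cancer-associated fibroblasts), 42.2% were fibroblast-like by this gate. Mural-like and smooth muscle- or myofibroblast-like wells were counted apart, although the study counts myofibroblastic cells among its CAFs. The study also excluded cells with high Ptprc or Epcam from its CAF analysis, which was done here only as an alternative. Neutrophil-like wells made up 84.2% in FibCtrl mouse 2 and 61.5% in FibΔZeb1 mouse 3, against 8.85% to 25.5% in the other 4 mice. These 2 mice had only 16 and 14 fibroblast-like wells, and the plate of FibΔZeb1 mouse 3 was sequenced on another flow cell than the other 5. Fibroblast-like wells were divided further into 95 telocyte-like wells, 135 wells like inflammatory CAFs (iCAF-like), 120 Grem1/Cxcl13-like wells and 170 wells of no subtype. The markers of these subtypes were known from earlier results on the same cells, so that the subtypes themselves are not a finding. Within 1.5 times of the cut lay 62 wells for the telocyte, 107 for the iCAF and 46 for the Grem1/Cxcl13 markers. Median depth was 12001 transcripts in fibroblast-like, 11736 in mural-like, 11992 in epithelium-like and 1442 in neutrophil-like wells. Some wells carried RNA of other cells. With each well thinned to 1000 barcodes, Col3a1 was detected in 40.8% of neutrophil-like and 98.4% of fibroblast-like wells, and S100a8 in 99.3% and 1.62%.

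Ereg and Areg are neighbors on chromosome 5 (GRCm38), at chr5:91074617-91093649 and chr5:91139599-91148432, with 45949 bases between them. The other ligands with a position given here lie apart from each other: Nrg1 at chr8:31807452-32891609, Hgf at chr5:16553495-16619439, Fgf7 at chr2:126034658-126091185, Fgf10 at chr13:118714699-118792573, Vegfa at chr17:46016993-46032377, Vegfc at chr8:54077532-54186454 and Angpt1 at chr15:42424667-42676977. The 250 bases upstream of the annotated start were available from RefSeq (GRCm38.p6) for 6 of the 10 genes, in 8 windows. They were searched on either strand for CAGGTG, the E-box sequence that Zeb1 is known to bind, for the cAMP response element TGACGTCA and for TATAAA. The motif CAGGTG was found in 2 of the 8 windows (Areg and Vegfa) and in 17.2% of all 32851 windows, TGACGTCA in 1 of 8 (Areg) and 1.55%, and TATAAA in 1 of 8 (Areg) and 12.4%. The windows of Areg and Fgf10 are shown because these 2 genes lie at the ends of the range described below, the one nearly absent from fibroblast-like wells and the other nearly restricted to them. Both are on the plus strand, at chr5:91139349-91139598 for Areg and chr13:118714449-118714698 for Fgf10, and motifs are in capitals.
Areg: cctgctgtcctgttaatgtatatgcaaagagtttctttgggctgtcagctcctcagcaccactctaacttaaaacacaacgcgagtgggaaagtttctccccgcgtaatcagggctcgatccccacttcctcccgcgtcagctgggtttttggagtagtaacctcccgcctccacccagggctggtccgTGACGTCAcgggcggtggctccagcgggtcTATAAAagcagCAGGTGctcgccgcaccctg
Fgf10: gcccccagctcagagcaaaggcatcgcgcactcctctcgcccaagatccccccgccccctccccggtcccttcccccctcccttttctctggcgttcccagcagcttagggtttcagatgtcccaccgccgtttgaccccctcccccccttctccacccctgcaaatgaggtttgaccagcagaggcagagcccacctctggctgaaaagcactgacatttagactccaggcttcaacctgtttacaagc
In the Areg window the 3 motifs begin 61 (TGACGTCA), 31 (TATAAA) and 20 bases (CAGGTG) before the start, and the Fgf10 window holds none of these letters. A match of letters does not show binding, and binding was not measured here.

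The question of which sorted cells made each ligand gave 3 patterns. Fibroblast-like wells held 66.9% of all transcripts, and they held 94.1% of Nrg1, 95.6% of Ereg, 95.5% of Hgf, 95.9% of Fgf7, 97.8% of Fgf10 and 95.6% of Vegfc transcripts. Vegfa and Angpt1 were spread more widely, with 67.8% and 80% in fibroblast-like wells. Areg and Hbegf had their largest share in the few epithelium-like wells, with 65% and 60.6%, although these wells held 9.07% of all transcripts. In bulk sums of this kind, fewer expressing cells and less RNA per cell cannot be told apart, and shares of wells are therefore given beside the levels.

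**Figure D1:**
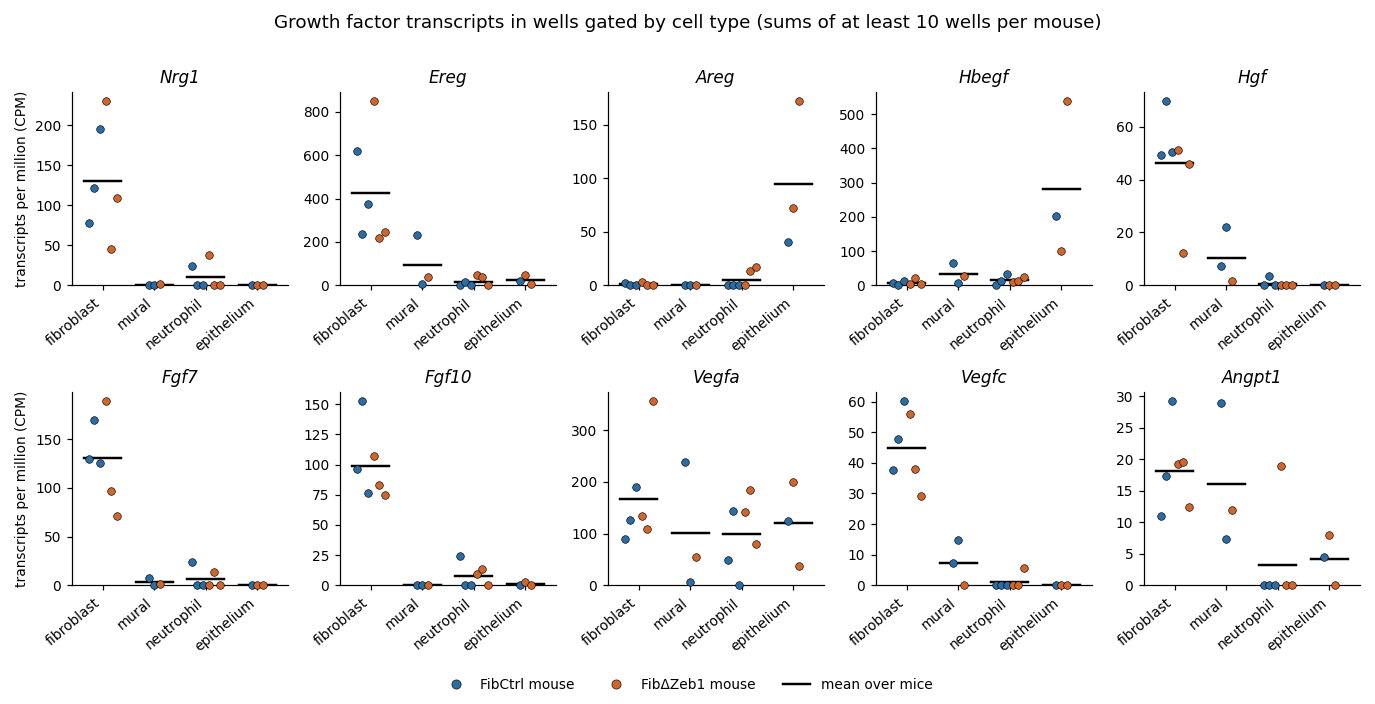
Level of each ligand in CPM (linear axis) in the summed wells of 4 gated cell types. Each point is a mouse with at least 10 wells of that type (6 mice for fibroblast- and neutrophil-like, 3 for mural- and epithelium-like wells), and bars are means. Nrg1, Ereg, Hgf, Fgf7, Fgf10 and Vegfc are highest in fibroblast-like wells, Areg and Hbegf in epithelium-like wells.

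Among the EGF family ligands, Ereg had the highest level in fibroblast-like wells. Its level in fibroblast-like wells was 620.4, 236 and 377 CPM in FibCtrl mice 1 to 3 and 849, 219 and 247 CPM in FibΔZeb1 mice 1 to 3, or 424 ± 257 CPM (SD, n = 6 mice). Both mouse 1 plates were thus the highest, one of each genotype. Mural-like wells had 232, 7.31 and 37.4 CPM in FibCtrl mice 1 and 3 and FibΔZeb1 mouse 1, epithelium-like wells 22.9 ± 20.5 CPM (n = 3 mice) and neutrophil-like wells 17.3 ± 21.5 CPM (n = 6 mice). In the fit over all cell types, Ereg was lower than in fibroblast-like wells by a log2 fold change of -3.30 ± 0.63 (SE, adjusted p = 0.000172) in mural-like, -3.68 ± 0.66 (adjusted p = 5.1e-05) in epithelium-like and -3.94 ± 0.56 (adjusted p = 5.24e-07) in neutrophil-like wells. All adjusted p-values are from the quasi-likelihood test of edgeR and are Benjamini-Hochberg values over all genes that were tested. Ereg was present in 50.2% of fibroblast-like wells (exact 95% interval, 45.8% to 54.6%) and in 18.5% of mural-like, 16% of epithelium-like and 2.81% of neutrophil-like wells. After thinning to 1000 barcodes these shares were 22.5%, 2.47%, 2.82% and 1.64%.

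Nrg1, the ligand of ERBB3 and ERBB4, was likewise found mainly in fibroblast-like wells, with 2.87% of its transcripts in smooth muscle- or myofibroblast-like and 2.35% in ungated wells. Of the 28.09 transcripts in smooth muscle- or myofibroblast-like wells, 27.09 came from 1 well. Its level in fibroblast-like wells was 77.2, 122 and 195 CPM in the 3 FibCtrl mice and 229.8, 45.2 and 108 CPM in the 3 FibΔZeb1 mice, so that the lowest and the highest value were both from FibΔZeb1 mice. A single Nrg1 transcript was counted in 81 mural-like wells and none in 75 epithelium-like wells, which allows a share of up to 4% of the latter with a detected transcript and sets no limit on cells that express the gene. Pooled over mice, the level in fibroblast-like wells was at least 41.6-fold higher than in epithelium-like wells (a floor of 3 transcripts over the group) and 142-fold higher than in mural-like wells (25.4 to 5611, 95% counting interval). In neutrophil-like wells Nrg1 was seen in FibCtrl mouse 1 and FibΔZeb1 mouse 1 at 24.4 and 37.9 CPM and in none of the other 4 mice. These are sums of few transcripts, 5 in all, and the log2 fold change to fibroblast-like wells was -3.65 ± 0.59 (adjusted p = 4.32e-06).

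Areg and Hbegf, both ligands of EGFR, showed the opposite distribution. Areg reached 40.2, 72.2 and 172 CPM in the epithelium-like wells of FibCtrl mouse 3 and FibΔZeb1 mice 2 and 3, whereas fibroblast-like wells had 1.9 and 3.41 CPM in both mouse 1 plates and 0 in the other 4. Areg was too rare to pass the expression filter of the cell type fit. It was found in 22.7% of epithelium-like and 0.769% of fibroblast-like wells, and in 8.45% and 0.203% after thinning to 1000 barcodes. The pooled level in epithelium-like wells was 46.7 times that in fibroblast-like wells. Hbegf had 201, 102 and 538 CPM in the same 3 sums of epithelium-like wells and 0 to 20.5 CPM in fibroblast-like wells, without overlap. Its log2 fold change was 4.06 ± 0.53 (adjusted p = 3.58e-07), in a direction that the expression filter had fixed in advance. Mural-like wells held Hbegf at 65, 7.31 and 27.2 CPM in FibCtrl mice 1 and 3 and FibΔZeb1 mouse 1, overlapping with fibroblast-like wells, and the log2 fold change of 1.94 ± 0.64 passed the threshold (adjusted p = 0.0353). This call was lost without FibCtrl mouse 1 (adjusted p = 0.421), without FibΔZeb1 mouse 1 (adjusted p = 0.305), with DESeq2 (adjusted p = 0.0814) and with only mt- genes counted as mitochondrial (adjusted p = 0.0516). The epithelium-like wells had passed an EPCAM-negative sort, and Epcam transcripts were present in 65.3% of them. Over all kept wells, glandular markers summed to 1780, 311 and 3298 CPM in FibCtrl mouse 3 and FibΔZeb1 mice 2 and 3. Squamous markers summed to 438, 1976 and 588 CPM in the same mice. Glandular and squamous wells were not separated for any ligand.

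Nearly all transcripts of Hgf, Fgf7 and Fgf10, the classical mesenchymal ligands for epithelium, came from fibroblast-like wells. Hgf measured 49.5, 69.7 and 50.4 CPM there in FibCtrl mice and 51.2, 12.3 and 45.9 CPM in FibΔZeb1 mice, with FibΔZeb1 mouse 2 far below the others. Fgf7 measured 129, 170.04 and 125 CPM in FibCtrl and 189, 96.5 and 70.9 CPM in FibΔZeb1 mice. Fgf10 varied least of the 3, with 96.6, 153 and 76.4 CPM in FibCtrl and 107, 83.2 and 75 CPM in FibΔZeb1 mice. The 15 smooth muscle- or myofibroblast-like wells were too few for the fit. Pooled over mice, they had 42.7 CPM of Hgf and 121 CPM of Fgf7, near the 45.2 and 145 CPM of pooled fibroblast-like wells. Fgf10 was at 0 CPM in these 15 wells. No transcript of Hgf or Fgf7 was counted in epithelium-like wells and none of Fgf10 in mural-like wells. Pooled levels in fibroblast-like wells were accordingly at least 13.3-fold (Hgf) and 42.6-fold (Fgf7) higher than in epithelium-like and at least 32.7-fold (Fgf10) higher than in mural-like wells. All 3 ligands were lower in mural-, neutrophil- and epithelium-like wells in the fit. The smallest of these differences was that of Hgf in mural-like wells (10.3 ± 10.5 against 46.5 ± 18.7 CPM, log2 fold change -2.93 ± 0.71, adjusted p = 0.00336), and it was not past the threshold without FibCtrl mouse 1 (adjusted p = 0.0596) or FibΔZeb1 mouse 1 (adjusted p = 0.337).

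The vessel ligands differed among themselves. Vegfc followed the mesenchymal ligands, with 37.6, 47.9 and 60.1 CPM in fibroblast-like wells of FibCtrl and 55.9, 38 and 29.2 CPM of FibΔZeb1 mice. It was not counted in epithelium-like wells, a level at least 13.6-fold below the pooled fibroblast-like wells, and was lower in mural-like wells (log2 fold change -3.66 ± 0.83, adjusted p = 0.00168), a call that was lost without FibΔZeb1 mouse 1 (adjusted p = 0.255). Vegfa was present in every type. It measured 89.5, 126 and 190.2 CPM in fibroblast-like wells of FibCtrl mice and 134, 109 and 356 CPM of FibΔZeb1 mice, where the highest value rests on the 14 wells of FibΔZeb1 mouse 3. Epithelium-like wells had 125, 200.4 and 37.5 CPM, mural-like wells 239, 7.31 and 54.4 CPM, and neutrophil-like wells a range of 0 to 185 CPM, and all of these overlapped with the fibroblast-like wells. The log2 fold changes were -0.58 ± 0.62 (adjusted p = 0.574), -0.83 ± 0.68 (adjusted p = 0.594) and -0.18 ± 0.52 (adjusted p = 0.767), so that no order of the 4 types could be drawn for Vegfa. At 1000 barcodes per well, Vegfa was detected in 12.8% of fibroblast-like (10% to 16.1%) and 10.9% of neutrophil-like wells (7.59% to 14.9%). Ereg, the ligand detected in most fibroblast-like wells at this depth, fell from 22.5% to 1.64% between the same wells. Angpt1 was low, with 10.9 to 29.2 CPM in fibroblast-like and 7.31 to 28.9 CPM in mural-like wells, and did not pass the expression filter of the cell type fit.

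Of the 8 ligands tested, 7 differed between mural- and fibroblast-like wells (1 higher, 6 lower, against 6.37% higher, 7.72% lower and 14.1% in either direction of all 6188 genes), 7 between epithelium- and fibroblast-like wells (1 higher, 6 lower, against 8.03%, 16.9% and 24.9%) and 6 between neutrophil- and fibroblast-like wells (all lower, against 24.4%, 43% and 67.4%). The 6 lower genes were Nrg1, Ereg, Hgf, Fgf7, Fgf10 and Vegfc in each comparison. Of these, Nrg1, Hgf, Fgf7, Fgf10 and Vegfc had 0 to 5 transcripts in each of the other 3 types. They could pass the expression filter only through fibroblast-like sums, which fixed the lower direction of their calls in advance. Hbegf, at 0 to 20.5 CPM in fibroblast-like sums, could pass only with its epithelium-like sums (102 to 538 CPM). This fixed its higher direction in epithelium-like wells. Areg and Angpt1 did not pass the filter. The counts and medians given here are therefore in part set by the filter. The median log2 fold change of the 8 was -3.48 in mural-like, -6.51 in epithelium-like and -3.97 in neutrophil-like wells, where the median of all genes was -0.03, 0.01 and -0.75. The shift of -0.75 concerns the whole neutrophil-like comparison, and the ligands called there fell further than it. The 3 comparisons share the fibroblast-like sums.

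**Figure D2:**
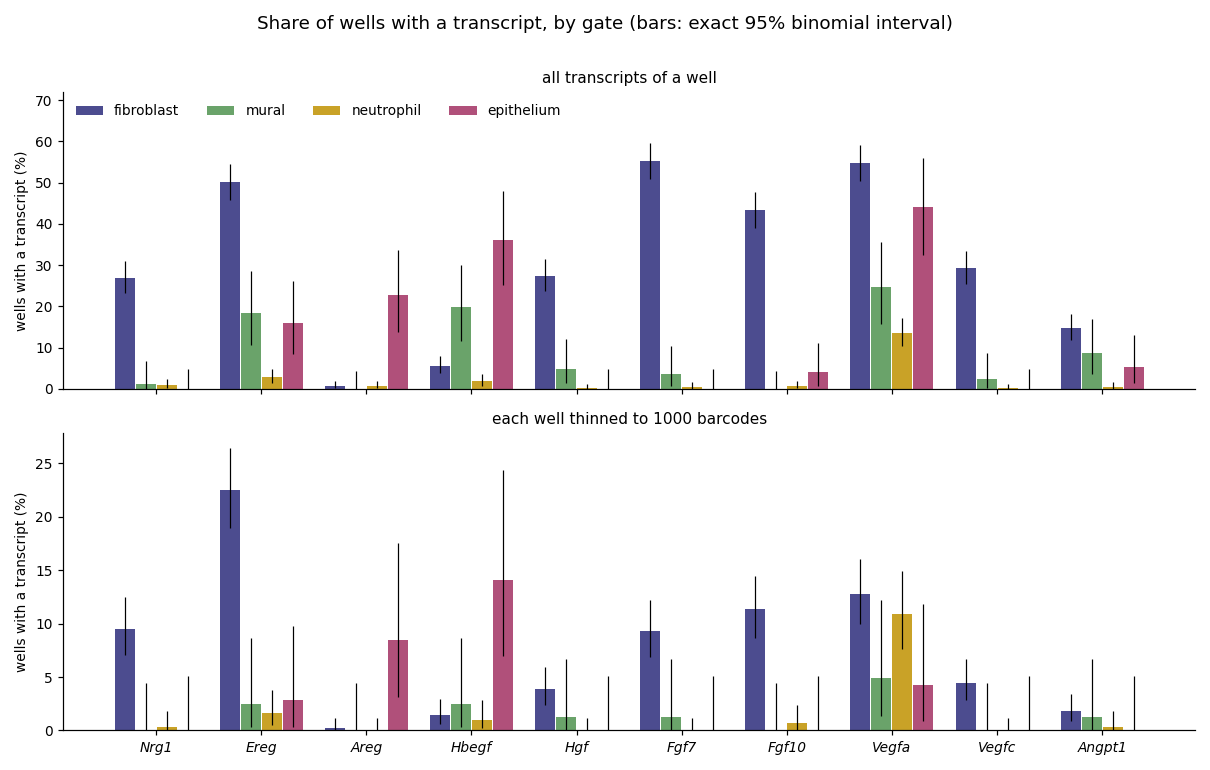
Share of wells (%) with a transcript of each ligand in 520 fibroblast-like, 81 mural-like, 427 neutrophil-like and 75 epithelium-like wells, from all transcripts of a well (top) and after thinning each well to 1000 barcodes (bottom; 493, 81, 304 and 71 wells). Vertical lines are exact 95% binomial intervals, which cover counting error only, and with equal depth Vegfa is as frequent in neutrophil-like as in fibroblast-like wells within its intervals.

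Within the fibroblasts, Nrg1 was the ligand with the largest difference between subtypes. Telocyte-like wells had 396, 176 and 318 CPM in FibCtrl mice 1 to 3 and 634, 324 and 174 CPM in FibΔZeb1 mice 1 to 3, and in 6 of 6 mice this was above the remaining fibroblast-like wells of the same mouse. Grem1/Cxcl13-like wells had 0 to 85.7 CPM. In iCAF-like wells Nrg1 was at 1.16 CPM in FibCtrl mouse 1 and at 0 in the other 5 mice. A transcript was present in 75.8% of telocyte-like, 30% of Grem1/Cxcl13-like, 18.2% of subtype-free and 0.741% of iCAF-like wells, and telocyte-like wells held 72.9% of the Nrg1 transcripts of all fibroblast-like wells. Over sums of at least 10 wells per mouse, each subtype was compared with the mean of the other 3 on the log scale. Nrg1 was higher in telocyte-like wells by a log2 fold change of 4.63 ± 0.22 (adjusted p = 1.11e-08, 3 mice) and lower in iCAF-like wells (-6.52 ± 0.48, adjusted p = 1.14e-06, 3 mice), where the fitted size rests on 1 transcript. Both calls were made under every alternative run, although the expression filter had fixed the direction of the iCAF-like call in advance. Nrg1 was known as a leading gene of such a cluster in these cells, so that its rise here is no independent evidence. In 6 mice the telocyte-like wells numbered 19, 5, 27, 30, 7 and 7, and values from fewer than 10 wells entered no test.

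Fgf10 was higher in Grem1/Cxcl13-like wells. Its level in them was 236, 287 and 181 CPM in FibCtrl and 199.8, 159 and 194 CPM in FibΔZeb1 mice, a narrow range, and exceeded the other fibroblast-like wells in 6 of 6 mice. Telocyte-like wells ranged from 7.89 to 176 CPM and iCAF-like wells from 0 to 125 CPM, where 125 CPM comes from 2 wells of FibΔZeb1 mouse 3. The log2 fold change was 2.38 ± 0.21 in Grem1/Cxcl13-like wells (adjusted p = 3.55e-05, 2 mice) and -2.38 ± 0.28 in iCAF-like wells (adjusted p = 4.39e-05), and both calls were made under every alternative run. The subtype with most Fgf10 was represented by 2 mice with at least 10 wells, 1 of each genotype. Leaving out either of them left 1 Grem1/Cxcl13-like sum, so that those runs held no replicate of this subtype. Fgf7, its close relative, was spread over all subtypes, with a transcript in 80.8% of Grem1/Cxcl13-like, 51.6% of telocyte-like and 49.6% of iCAF-like wells, and passed the threshold in no subtype comparison (log2 fold changes of 0.75 ± 0.27, 0.19 ± 0.27 and -0.24 ± 0.26). Without the expression filter it was called higher in Grem1/Cxcl13-like wells (0.77, adjusted p = 0.0385).

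Hgf was low in iCAF-like wells and in wells of no subtype. It measured 2.54 to 25.1 CPM in iCAF-like wells of the 6 mice and 10.1 to 25 CPM in wells of no subtype of the 4 mice with at least 10 such wells, overlapping, against 36.7 to 129.7 CPM in Grem1/Cxcl13-like and 15.8 to 80.1 CPM in telocyte-like wells. Hgf was higher in Grem1/Cxcl13-like wells (log2 fold change 1.64 ± 0.31, adjusted p = 0.0115; above the other fibroblast-like wells in 6 of 6 mice), higher in telocyte-like wells (1.41 ± 0.32, adjusted p = 0.00792; 4 of 6 mice) and lower in iCAF-like wells (-2.25 ± 0.45, adjusted p = 0.00308; 6 of 6 mice). Without FibCtrl mouse 1 none of the 3 was past the threshold. The adjusted p was 0.118 in telocyte-like and 0.381 in iCAF-like wells, and the Grem1/Cxcl13-like log2 fold change was 0.93, from 1 sum left of this subtype. Without FibΔZeb1 mouse 1 the telocyte-like call was lost as well (adjusted p = 0.0689). With a stricter gate the latter was at 0.0816.

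Ereg was above the other fibroblast-like wells in Grem1/Cxcl13-like wells of 5 of 6 mice, with 1315, 754 and 330.1 CPM in FibCtrl and 1453, 1057 and 276 CPM in FibΔZeb1 mice. These wells held 55.3% of the Ereg transcripts of the fibroblast-like wells, and 87.5% of them had a transcript. The exception was FibCtrl mouse 3, where the other fibroblast-like wells were higher. Telocyte-like wells were at 243 to 1105 CPM, and the 2 subtypes overlapped. The log2 fold change of Grem1/Cxcl13-like wells, 1.61 ± 0.40, missed the threshold (adjusted p = 0.0633). It passed without FibCtrl mouse 3 (adjusted p = 0.0391) or FibΔZeb1 mouse 2 (0.0417) and without the expression filter (1.72e-13). Without FibΔZeb1 mouse 1, which left 1 Grem1/Cxcl13-like sum, the log2 fold change was 2.19. In iCAF-like wells Ereg ranged from 0 to 976 CPM, was present in 18.5% of wells and was not called (-1.33 ± 0.48, adjusted p = 0.0872). It was past the threshold there without FibΔZeb1 mouse 1 (-2.90, adjusted p = 0.00264), without the expression filter (adjusted p = 9.66e-07), with 5 wells per sum (0.0429) and with the stricter gate (0.0171).

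Both vessel ligands with subtype calls, Vegfa and Vegfc, had their highest pooled level in telocyte-like wells. Vegfa measured 138, 149 and 256 CPM in telocyte-like wells of FibCtrl and 205, 29.5 and 626 CPM of FibΔZeb1 mice, and 82.1% of these wells had a transcript. Grem1/Cxcl13-like wells were at 0 to 86.7 CPM, below the other fibroblast-like wells in all 6 mice. The log2 fold changes were 0.73 ± 0.18 (adjusted p = 0.0118) and -1.02 ± 0.21 (adjusted p = 0.0207). Both calls were lost with DESeq2 (adjusted p = 0.066 and 0.0504) and with only mt- genes counted as mitochondrial (0.0976 and 0.304). Neither was made without FibCtrl mouse 1 or without FibΔZeb1 mouse 1. In telocyte-like wells the adjusted p was then 0.157 and 0.205. In Grem1/Cxcl13-like wells 1 sum was left in each of these runs, with log2 fold changes of -0.85 and -1.23. The telocyte-like call was also lost with 5 wells per sum (0.156), and the Grem1/Cxcl13-like call with the stricter gate (0.653) and without the mouse term (0.0836). Vegfc was low in iCAF-like wells, at 0 to 19 CPM, and below the other fibroblast-like wells in 6 of 6 mice (log2 fold change -2.08 ± 0.43, adjusted p = 0.00408), a call that was lost without FibΔZeb1 mouse 1 (adjusted p = 0.0858) and with the stricter gate (0.245). In telocyte-like wells Vegfc was called higher only with 5 wells per sum (adjusted p = 0.0369) and with the stricter gate (0.0331). Telocyte-like (30.4 to 167 CPM) and Grem1/Cxcl13-like wells (0 to 122 CPM) overlapped for Vegfc. Angpt1 was at 0 to 70.8 CPM with no call in any subtype, and Hbegf stayed at or below 53.1 CPM in every subtype and mouse.

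**Figure D3:**
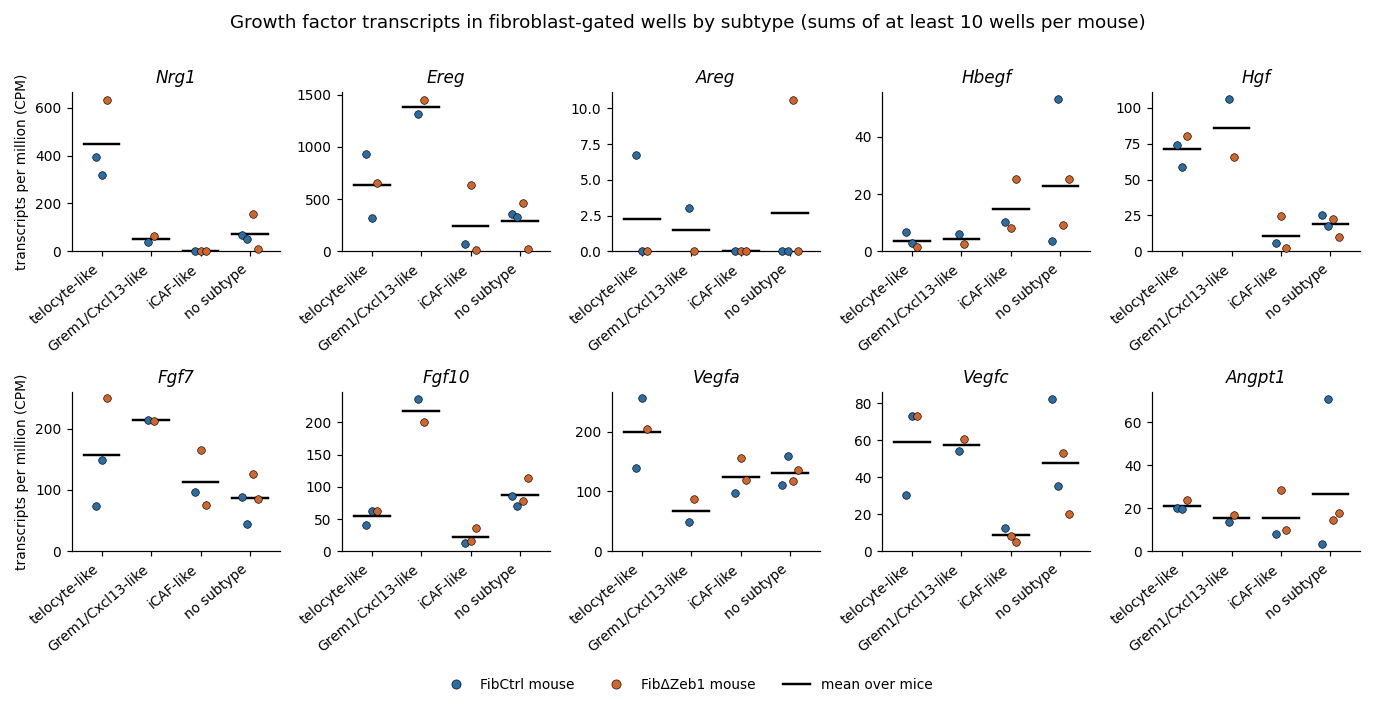
Level of each ligand in CPM (linear axis) in the summed wells of 4 groups of fibroblast-like wells. Each point is a mouse with at least 10 wells of the group (telocyte-like 3, Grem1/Cxcl13-like 2, iCAF-like 3 and no subtype 4 mice), and bars are means. Nrg1 stands out in telocyte-like wells (318 to 634 CPM), Fgf10 in Grem1/Cxcl13-like wells (199.8 and 236 CPM), and both are near the bottom of the axis in iCAF-like wells.

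Of the 9 ligands tested among subtypes, 3 were higher in telocyte-like wells (Nrg1, Hgf and Vegfa), with 6.62% of all 7497 genes called higher, 6.59% lower and 13.2% in either direction. In Grem1/Cxcl13-like wells 2 were higher (Fgf10 and Hgf) and 1 lower (Vegfa), against 1.23% of all genes higher, 0.507% lower and 1.73% in either direction, and in iCAF-like wells 4 were lower (Nrg1, Hgf, Fgf10 and Vegfc) and 0 higher, against 5.5% lower, 7.32% higher and 12.8% in either direction. The median log2 fold change of the 9 was 0.33, 0.68 and -1.33 in these comparisons, beside 0.02, 0.01 and -0.02 over all genes. In iCAF-like sums Nrg1 was at 0 to 1.16, Hgf at 2.54 to 24.7 and Vegfc at 5.07 to 12.7 CPM. These ligands could pass the expression filter only through the other subtypes, which fixed the lower direction of their iCAF-like calls in advance. The count and median for iCAF-like wells are therefore in part set by the filter. The 3 comparisons come from 1 fit and share their sums.

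Single wells often held several ligands. At least 1 of the 10 was detected in 463 of 520 fibroblast-like wells (89%), with a median of 3 and a maximum of 9 in 1 well. The median was 5 in telocyte-like, 4 in Grem1/Cxcl13-like and 2 in iCAF-like wells, whose median depths were 15401, 13370 and 11349 transcripts. No ligand was detected in 79.9% of neutrophil-like, 37% of mural-like and 29.3% of epithelium-like wells. Ereg was present in 82.1% of the wells with Nrg1 and in 38.4% of those without, and Hgf in 44.4% of the wells with Fgf10 and 14.6% of those without. Deeper wells hold more of every gene, and these shares were not corrected for depth. The neighbors Ereg and Areg met in 3 fibroblast-like wells.

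The comparison of the study is between FibCtrl and FibΔZeb1 mice. Zeb1 itself, the deleted gene, was at 114, 105 and 95.9 CPM in fibroblast-like wells of FibCtrl and at 59.3, 71.9 and 66.7 CPM of FibΔZeb1 mice. The groups did not overlap, in the direction of the labels, although Zeb1 transcripts remained. The log2 fold change of -0.66 ± 0.22 did not pass the adjustment (unadjusted p = 0.0153, adjusted p = 1 by edgeR). Tags from the 3' end may lie outside the deleted part of the gene, so that this level checks the deletion only in part.

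None of the 10 ligands passed the test between the genotypes. In fibroblast-like wells edgeR called 0 of 8319 genes (percent called, 0), with 138 (1.66%) at an unadjusted p under 0.05 and 1 called by DESeq2. Over all kept wells it called 0 of 10424 genes (percent called, 0), with 73 (0.7%) at an unadjusted p under 0.05 and 1 called by DESeq2. The CPM of the 3 and 3 mice overlapped for all 10 ligands in both sets of wells, where 6.48% and 3.86% of all genes tested did not overlap. Ereg measured 411 ± 195 CPM in FibCtrl and 438 ± 356 CPM in FibΔZeb1 fibroblast-like wells (log2 fold change 0.09 ± 0.55), and Nrg1 131 ± 59.6 and 128 ± 93.8 CPM (0.04 ± 0.53). These spreads between mice of 1 genotype exceed the differences between genotypes many times. The lowest exact permutation p, two-sided over 3 and 3 mice, was 0.3 for Hgf in either set, where 0.1 is the smallest this design allows.

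Among the fitted ligands in fibroblast-like wells, Hgf and Vegfa had the largest log2 fold changes. Hgf measured 56.5 ± 11.4 CPM in FibCtrl and 36.5 ± 21.1 CPM in FibΔZeb1 fibroblast-like wells, a log2 fold change of -0.59 ± 0.44 (adjusted p = 1). The lower mean rests mainly on the 12.3 CPM of FibΔZeb1 mouse 2. Vegfa measured 135 ± 51 and 199 ± 136 CPM (0.52 ± 0.44), and without FibΔZeb1 mouse 3 its log2 fold change was -0.08. The remaining ligands tested, Fgf7 (-0.15 ± 0.35), Fgf10 (-0.19 ± 0.29), Vegfc (-0.08 ± 0.29) and Angpt1 (0.05 ± 0.43), were within 1 SE of 0. Areg and Hbegf were too rare in fibroblast-like wells to be fitted. Over all wells, which include the epithelium-like ones, Areg was at 3.5 to 51.1 CPM and Hbegf at 14 to 159 CPM, with the highest value of each in FibΔZeb1 mouse 3 and log2 fold changes of 1.01 ± 0.96 and 0.89 ± 0.83. Without that mouse these were -0.03 and -0.38. With SE of this size, a change of 2-fold (1 on the log2 scale) in Nrg1 or Ereg lies within 2 SE of 0 and was not detectable with 3 mice per genotype.

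**Figure D4:**
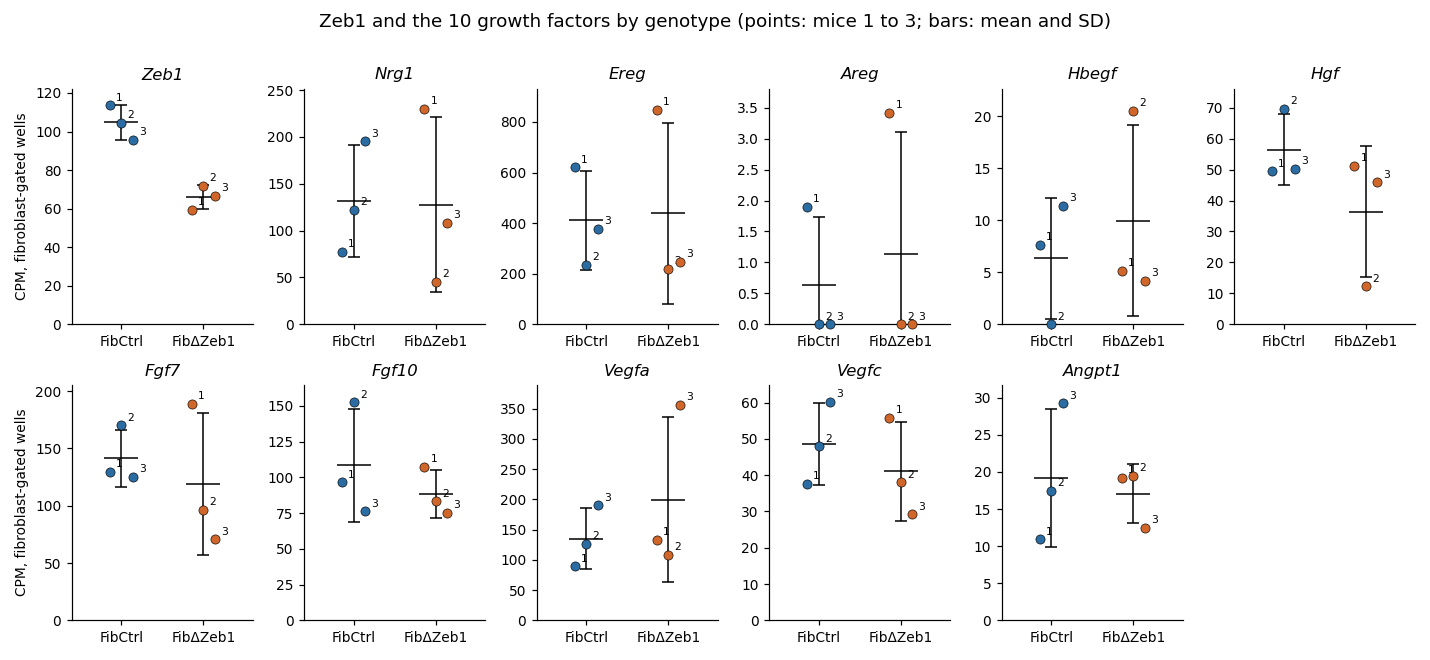
Level of Zeb1 and the 10 ligands in fibroblast-like wells (CPM, linear axis) in FibCtrl and FibΔZeb1 mice. Points are mice, numbered 1 to 3 within the genotype, and bars are mean and SD (n = 3), and only Zeb1 is without overlap, with 95.9 to 114 CPM against 59.3 to 71.9 CPM.

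The makeup of the fibroblast-like wells moved with the mouse, and so did some ligands. The summed telocyte markers were at 459, 964 and 1562 CPM in fibroblast-like wells of FibCtrl and 706, 360 and 1431 CPM of FibΔZeb1 mice, and the iCAF markers at 7771, 5267 and 2051 CPM and 2818, 6788 and 2483 CPM. FibΔZeb1 mouse 2, which had the lowest Nrg1 and Hgf, also had the lowest telocyte and the second highest iCAF marker level. Other mice did not follow this order. FibΔZeb1 mouse 1 had the highest Nrg1 (229.8 CPM), with telocyte markers at 706 CPM, below the 1562 CPM of FibCtrl mouse 3. FibCtrl mouse 1, with the highest iCAF marker level, had 49.5 CPM of Hgf. Neutrophil markers, all 8 of which were detected, were at 89 to 418 CPM in these wells. The part of this makeup in the genotype values was not tested.

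**Figure D5:**
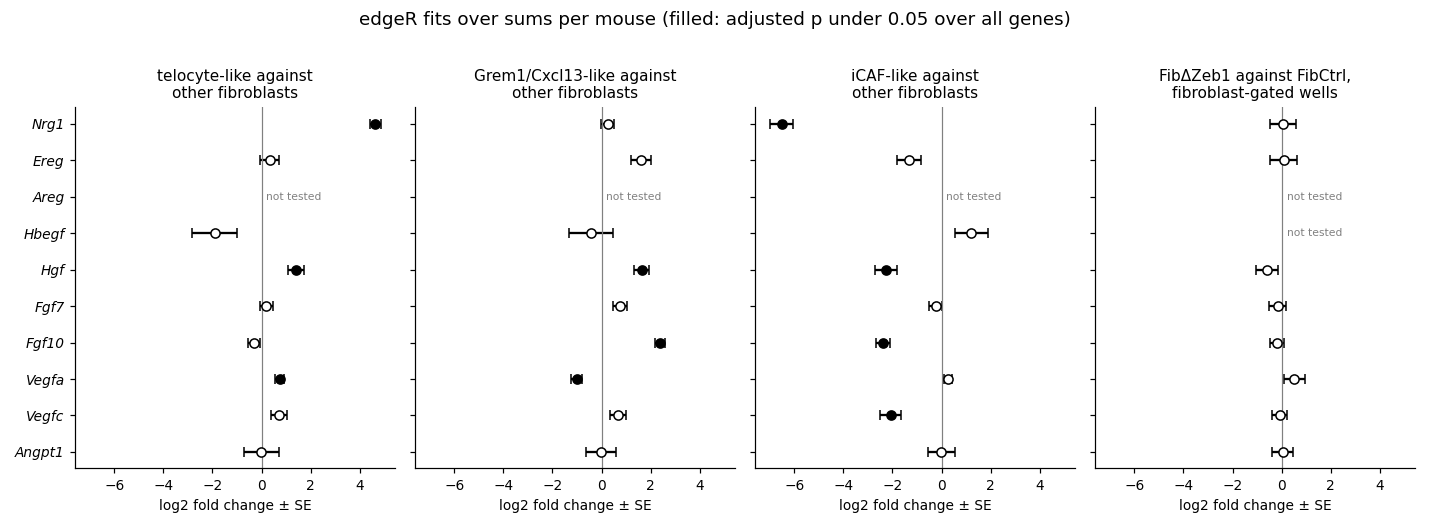
Log2 fold change ± SE of each ligand (horizontal axis) in telocyte-like, Grem1/Cxcl13-like and iCAF-like wells against the mean of the other fibroblast groups and in fibroblast-like wells of FibΔZeb1 against FibCtrl mice, from edgeR fits over sums per mouse. Filled points passed an adjusted p of 0.05 over all genes, and the subtype comparisons hold 3, 3 and 4 filled points while the genotype comparison holds none.

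Receptors and other genes of the same pathways were followed from 9 lists. For the EGF family, 7 other ligands, 6 receptors or feedback inhibitors and 3 sheddases were listed. In the cell type fit 1 of the 7 ligands and 2 of the 6 receptors or inhibitors passed the filter, and none was called in mural- or epithelium-like wells. Egfr measured 89.1 ± 57.5 CPM in fibroblast-like and 75.5 ± 15.6 CPM in epithelium-like wells, so that the receptor of Ereg, Areg and Hbegf was found in both. Erbb3 and Erbb4, the receptors of Nrg1, were rare, with 4 and 1 transcripts in fibroblast-like and 9 and 0 in epithelium-like wells. Errfi1, a feedback inhibitor of EGFR, was higher in iCAF-like wells (599 ± 411 against 103 ± 79.5 CPM in the other fibroblast-like wells, log2 fold change 2.21 ± 0.42, adjusted p = 0.00234) and lower in telocyte-like wells (-2.35 ± 0.54, adjusted p = 0.00796). Egfr was also higher in iCAF-like wells (0.92 ± 0.27, adjusted p = 0.0361). Of the sheddases, Adam10 was higher (1.12 ± 0.37, adjusted p = 0.0243) and Adam9 lower (-1.80 ± 0.45, adjusted p = 0.0025) in epithelium-like than in fibroblast-like wells.

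The receptor of Hgf showed the reverse of its ligand. Met was at 51.5 ± 11.1 CPM in epithelium-like and 3.21 ± 5.11 CPM in fibroblast-like wells (log2 fold change 3.41 ± 0.85, adjusted p = 0.00258), and Spint2, an inhibitor of the proteases that activate HGF, at 692 ± 439 and 21.4 ± 14.1 CPM (4.25 ± 0.51, adjusted p = 1.09e-07). These were the 2 of 7 genes of the list that were tested. Met, at 0 to 13.3 CPM in fibroblast-like sums, could pass the expression filter only through epithelium-like sums, which fixed its higher direction in advance. Among fibroblasts, Spint2 (3.02 ± 0.62) and Plau (3.35 ± 0.71), which encodes urokinase, were higher in telocyte-like wells.

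Fgfr2, the receptor of Fgf7 and Fgf10, was expressed in the fibroblasts themselves. Like Fgf10 it was called higher in Grem1/Cxcl13-like and lower in iCAF-like wells, whereas in telocyte-like wells Fgfr2 was called higher and Fgf10 was not called, with a level above the other fibroblast-like wells in 2 of 6 mice. Fgfr2 measured 295 ± 49.5 CPM in Grem1/Cxcl13-like wells (log2 fold change 1.39 ± 0.23, adjusted p = 0.00539), 243 ± 46.7 CPM in telocyte-like wells (1.18 ± 0.23, adjusted p = 0.00251) and 14.2 ± 9.88 CPM in iCAF-like wells (-3.77 ± 0.34, adjusted p = 5.4e-06). Counts per gene do not separate its splice forms. Fgfr1 moved the other way, being higher in iCAF-like (0.70 ± 0.17) and lower in telocyte-like wells (-0.58 ± 0.18), and was lower in mural-, epithelium- and neutrophil-like than in fibroblast-like wells. Of the 5 other FGF ligands, Fgf9 was higher in telocyte-like (3.26 ± 0.71) and Fgf18 in iCAF-like wells (2.87 ± 0.61).

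Other vessel genes were higher in mural-like wells. Angpt2, the context-dependent antagonist of Angpt1, was at 166 ± 57.1 CPM in mural-like and 0.711 ± 1.74 CPM in fibroblast-like wells (log2 fold change 6.29 ± 0.66, adjusted p = 1.65e-08). Pgf, a VEGF family ligand (3.67 ± 0.78), its receptor Flt1 (4.54 ± 0.74) and Tie1 (5.12 ± 0.56) were higher there too. Tie1 and Flt1 are known from endothelium. Of 8 endothelial markers, 5 had a transcript in mural-like wells, where the summed list was at 0 to 257 CPM by mouse. Tie1 was present in 58% of these wells and Pecam1, Egfl7, Emcn and Vwf in 1.23% to 4.94%, while Cdh5, Kdr and Cldn5 were at 0. The part of other cells in these values was not tested. Figf, the gene of VEGF-D and a lymphatic growth factor like Vegfc, was lower in mural-like (-3.70 ± 0.76) and epithelium-like wells (-3.97 ± 0.69). It could pass the filter only through fibroblast-like sums, which fixed this lower direction as well. Among fibroblasts Figf ran opposite to Vegfc, with 231 ± 128 CPM in iCAF-like against 48.5 ± 51.4 CPM in the other fibroblast-like wells (2.89 ± 0.25, adjusted p = 4.05e-06). Tek, the receptor of Angpt1, was higher in iCAF-like wells as well (61.1 ± 40 against 11.6 ± 4.97 CPM, 3.75 ± 0.40, adjusted p = 2.18e-05). No gene of the 9 lists was called between the genotypes, with 30 of 44 tested over all wells and 20 in fibroblast-like wells.

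For each ligand, the genes with the most similar pattern were taken by Pearson's r of log2(CPM + 1) over 24 sums per mouse, cell type and subtype, as a description. The sums of a mouse share a library, and telocyte-like or other subtype sums are parts of the same plates. Nrg1 was most like Dpep2 (r = 0.906), Adamdec1 (0.905) and Ano5 (0.883). Hgf and Vegfc were among each other's 3 most similar genes (0.908), and Fgf7 was among those of Fgf10 (0.893). Areg was most like Hoxb13, Tnfrsf19 and Ehf (0.867 to 0.889) and Hbegf like Etv3, Zfand5 and Lsr (0.770 to 0.851), whereas its r with Nrg1 was -0.598.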

How the data were processed

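SORT-seq was analysed for 6 mice (3 per genotype). Reads were split by the authors into wells and barcoded molecules and aligned with BWA, and the submitters' processing notes name GRCm38 and Cell Ranger 2.1.1. The deposited barcode tables hold counts of different barcodes, and the deposited transcript tables hold estimated counts, which the authors corrected for molecules sharing a barcode. Neither table is normalized, and spike-ins were left out. The number of columns of other samples not used was 0. No columns of the authors' comparisons were present.

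A well was used if it had between 100 and 6000 genes and if transcripts listed on the mitochondrial chromosome stayed below 10%. A well entered a gate when the summed markers of a type passed 32 to 128 transcripts per 10000 (8 to 64 for fibroblast subtypes) with at least 3 markers detected; mural outranked smooth muscle, and both outranked fibroblast, and any other well passing several gates was mixed. No doublet caller was run. Estimated counts were summed per mouse, or per mouse and gate with at least 10 wells, rounded, and analysed in R 4.3.3 by the quasi-likelihood test of edgeR 4.0.16, after TMM scaling and filterByExpr, at a Benjamini-Hochberg threshold of 0.05, without covariates for the genotype and with the mouse as a term for types and subtypes, since their sums come from the same mice. The SE of a log2 fold change is its size divided by the root of the test's F. DESeq2 1.42.0 was an alternative, beside another scaling, no filter, the barcode table, another mitochondrial filter, exclusion of wells with Ptprc or Epcam, stricter gates, 5 wells per sum and leaving out each mouse. The test was tried on simulated counts with 200 changed genes. Shares of wells have exact binomial intervals at 95%, which like the counting intervals and the floor of 3 transcripts cover counting error only. For the genotype, p-values measure the spread between mice. In the type and subtype fits, where the mouse is a term, they measure the spread among sums that remains after mouse and type. For single levels the exact permutation test over mice was two-sided (scipy 1.17.1).

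The 10 genes, the marker and pathway lists and the tests were chosen with earlier results of these data known. The text names all 10 ligands, from each list the called genes (up to 4 by fold) and up to 2 most abundant ones, the 3 genes most like each ligand, and Zeb1; Erbb3, Erbb4 and the endothelial markers at 0 were added after their values were seen. Promoter windows and positions are from RefSeq (GRCm38.p6), and 6 of 10 genes matched a window.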

Additional observations from a re-analysis of the deposited data

Results flagged for a closer look

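In 35 groups of 4 or 6 mice, each ligand's highest or lowest value was compared with its nearest neighbor, and 3 values stood apart by Dixon's criterion at 95%. Chance flags about 1 in 20 such groups if values are normally distributed, which need not hold for sparse counts with zeros. The groups of all wells and of fibroblast-like wells also share wells. Areg over all kept wells was at 51.1 CPM in FibΔZeb1 mouse 3, with 19.8 CPM in the next mouse, and Hbegf over all kept wells was at 159 CPM in the same mouse, with 58.8 CPM in the next. In that mouse 15.6% of the kept wells were epithelium-like, against 0.671% to 19.1% in the other 5, and its plate was the one sequenced on another flow cell. Their part in the values was not tested. In fibroblast-like wells of no subtype, Areg was at 10.6 CPM in FibΔZeb1 mouse 1 and at 0 in the other 3 mice with at least 10 such wells. Areg was detected in 2 of the 170 wells of no subtype. With only 1 mouse above 0 the criterion is always met, so that this flag carries no further information.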

How the results depend on the processing

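The calls of Nrg1 in telocyte- and iCAF-like wells, of Fgf10 in Grem1/Cxcl13- and iCAF-like wells and of Nrg1, Ereg, Fgf7 and Fgf10 among cell types kept their direction and side of the threshold under every alternative that gave a value for them. For Nrg1, Fgf7 and Fgf10 among cell types and Nrg1 in iCAF-like wells the lower direction was fixed by the filter. That it did not change is no further evidence. Without FibCtrl mouse 1 or FibΔZeb1 mouse 1, only 1 Grem1/Cxcl13-like sum was left for Fgf10. No fit was obtained for epithelium-like wells without the wells holding Ptprc or Epcam, nor for mural-like wells under a stricter gate. The cause of the changes below was not tested.

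No paired analysis was possible because the labels give the mice of the 2 genotypes no shared numbers. Cell types and subtypes were fitted with the mouse as a block. Without this replicate block 58 genes in place of 130 were called in Grem1/Cxcl13-like wells, Angpt1 turned to 0.30 in telocyte-like wells, Hbegf was no longer called in mural-like wells (1.62, adjusted p = 0.107), and Vegfa was not called in Grem1/Cxcl13-like wells (-1.12, adjusted p = 0.0836).

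DESeq2 called 1 gene for the genotype in either set of wells, where edgeR called 0. Without the expression filter 5 ligands and 341 genes were called in Grem1/Cxcl13-like wells (in place of 3 and 130) and 2441 genes in epithelium-like wells (in place of 1540). With 5 wells per sum 206 genes, and with a stricter gate 47 genes, were called in Grem1/Cxcl13-like wells. Without wells holding Ptprc or Epcam 4 ligands in place of 7 were called in mural-like wells. Ligands present in over 10% of fibroblast-like wells numbered 8, and 3 and 1 after thinning to 1000 and 500 barcodes.

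Leaving out 1 mouse gave 4 to 7 called ligands and 549 to 1168 genes for mural-like wells (lowest without FibΔZeb1 mouse 1), 1 to 3 ligands and 336 to 1085 genes for telocyte-like wells (lowest without FibCtrl mouse 1; 1 ligand and 483 genes without FibΔZeb1 mouse 1), 3 to 4 ligands and 171 to 1040 genes for iCAF-like wells (lowest without FibCtrl mouse 1; 443 without FibΔZeb1 mouse 1) and 1 to 4 ligands and 7 to 167 genes for Grem1/Cxcl13-like wells (lowest without FibCtrl mouse 1; 65 without FibΔZeb1 mouse 1). The runs without FibCtrl mouse 1 or FibΔZeb1 mouse 1 left 1 Grem1/Cxcl13-like sum, so that their counts there come from fits without a replicate of this subtype. With 1 mouse left out, the number of ligands whose genotypes did not overlap was 0 to 3 over all wells and 0 to 2 in fibroblast-like wells. Fewer mice separate more easily, and the share over all genes was not computed for this setting. These counts are therefore no result about the ligands.

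For the genotype over all wells, the sign of 9 ligands turned under at least 1 alternative, none of them called. Without the filter Nrg1 was at 0.024 and Ereg at 0.020, with only mt- genes as mitochondrial Areg was at -0.0054, and without Ptprc or Epcam wells Vegfa was at 0.30 and Angpt1 at -0.050. Without the 2 mice with fewest fibroblast-like wells, an alternative chosen after seeing the data, Nrg1 was at 0.086, Ereg at 0.061, Hbegf at -0.38, Fgf7 at 0.049, Fgf10 at 0.12 and Vegfc at 0.036. Leaving out 1 mouse gave ranges of -1.38 to 0.38 (Nrg1), -1.30 to 0.90 (Ereg), -0.026 to 1.62 (Areg), -0.38 to 1.40 (Hbegf), -1.05 to 0.16 (Fgf7), -0.61 to 0.14 (Fgf10), -0.19 to 0.13 (Vegfa), -0.66 to 0.15 (Vegfc) and -0.17 to 0.42 (Angpt1). In fibroblast-like wells, with only mt- genes as mitochondrial Nrg1 was at -0.0047 and Ereg at -0.096, Angpt1 was at -0.0015 with DESeq2 and at -0.064 without Ptprc or Epcam wells, and without the 2 mice Fgf7 was at 0.20, Fgf10 at 0.16, Vegfa at -0.11 and Vegfc at 0.056. The ranges there were -0.83 to 0.46 (Nrg1), -0.83 to 0.59 (Ereg), -0.65 to 0.083 (Fgf7), -0.43 to 0.054 (Fgf10), -0.076 to 0.80 (Vegfa), -0.38 to 0.061 (Vegfc) and -0.36 to 0.49 (Angpt1).

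Among cell types, Vegfa was at 0.20 in neutrophil-like wells without Ptprc or Epcam wells and ranged from -0.50 to 0.18 there, from -2.31 to 0.020 in mural-like and from -1.19 to 0.22 in epithelium-like wells when 1 mouse was left out. Among subtypes, with a stricter gate Fgf7 was at -0.031 in telocyte-like and Vegfc at -2.11 and Angpt1 at 0.87 in Grem1/Cxcl13-like wells. Angpt1 was at 0.027 with DESeq2 and 0.0067 with its size factors in telocyte-like wells, and with only mt- genes as mitochondrial at 0.20 in iCAF-like and 0.075 in Grem1/Cxcl13-like wells, where Hbegf was at 0.052. The ranges without 1 mouse were -0.40 to 0.93 (Ereg), -0.28 to 0.72 (Fgf7) and -0.37 to 0.59 (Angpt1) in telocyte-like, -0.44 to 0.35 (Angpt1) in iCAF-like and -0.34 to 0.33 (Angpt1) in Grem1/Cxcl13-like wells. Depth limits rare ligands most: in neutrophil-like wells of FibCtrl mouse 3, which sum to 29621 transcripts, 1 transcript amounts to 33.8 CPM.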

Other observations

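Zeb1 was itself unequal among the fibroblast subtypes. It measured 116 ± 35.1 CPM (SD, n = 3 mice) in iCAF-like wells against 69.7 ± 14.9 CPM (n = 6 mice) in the other fibroblast-like wells, a log2 fold change of 1.06 ± 0.22 (adjusted p = 0.00396 by edgeR), where Nrg1, Hgf, Fgf10 and Vegfc were lower. Without FibCtrl mouse 1 the adjusted p of Zeb1 was 0.226. In iCAF-like wells it was at 156, 172 and 171 CPM in FibCtrl and 94.6, 96.3 and 100.4 CPM in FibΔZeb1 mice, of which FibCtrl mice 2 and 3 and FibΔZeb1 mouse 3 had only 5, 4 and 2 such wells. The groups did not overlap there, and this difference was not tested.

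Of the 17 genes of the 9 pathway lists that were tested in neutrophil-like wells, 11 were called, 8 of them lower and 3 higher than in fibroblast-like wells, where 67.4% of all genes were called. Egfr (log2 fold change -3.35 ± 0.59), Errfi1 (-2.86 ± 0.56), Fgfr1 (-3.94 ± 0.45), Fgfr2 (-3.42 ± 0.58), Nrp1 (-3.69 ± 0.51), Nrp2 (-3.44 ± 0.57) and Adam9 (-2.34 ± 0.46) were lower, against a median of -0.75 over all genes in this comparison. Figf, with no transcript in these wells and 91.7 ± 78.0 CPM in fibroblast-like wells, was lower as well, a direction fixed in advance by the expression filter. Spint2 was higher (85.5 ± 60.3 against 21.4 ± 14.1 CPM, 2.02 ± 0.50), as were Angpt2 (9.4 ± 13.2 against 0.711 ± 1.74 CPM) and Tie1 (11 ± 13.8 against 1.87 ± 2.19 CPM), which rest on 3 and 7 transcripts in 427 wells. Several EGF family ligands and HGF regulators that were too rare for the fit had most of their transcripts in epithelium-like wells, among them Tgfa (49 of 62), St14 (131 of 166) and Spint1 (130 of 158), which were named after their values had been seen.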
